A study of Homo sapiens with 9 samples.

Results

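The genes described here are 37 human genes that belong to the ATF4 programme and to amino acid supply: 11 regulators and stress-induced effectors, 12 enzymes of serine, one-carbon, proline and related synthesis, 8 amino acid transporters and 6 aminoacyl-tRNA synthetases. They were listed by name and matched by symbol to the Ensembl identifiers of the count files. All 37 were found among the 36601 genes counted, and all 37 were among the 15560 genes tested. Their levels were compared in LX2, an immortalised human cell line derived from hepatic stellate cells, which deposit collagen when the liver scars. Cultures were transfected by lipofection with 20 nM of siRNA that had no target (siNT), targeted YAP (siYAP) or targeted TAZ (siTAZ), and were grown for 7 days with serum. Each group had 3 libraries, 9 in all. Whether a reagent was a pool, and what separated the replicates, is not stated in the labels, so the p-values cover the spread among these libraries and nothing beyond it.

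YAP and TAZ are paralogous transcriptional coactivators of the Hippo pathway that work through TEAD factors. ATF4 is a basic leucine zipper factor whose translation rises when a stress kinase phosphorylates eIF2, for example when amino acids run short or unfolded proteins collect in the endoplasmic reticulum. It pairs with C/EBP factors on composite DNA elements and switches on genes that make, import and charge amino acids, together with DDIT3 (CHOP), TRIB3 and other factors that tune or end the response. Activated stellate cells spend much glycine and proline on collagen, and the serine and proline routes in the list feed those pools.

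The short form of the composite element reads TGATGNAA, and the stretches below are shown because they carry these letters (on either strand) in the promoter windows of members. Windows of 250 bases before to 50 after the annotated start came from RefSeq on GRCh38.p14, and 29 of the 37 members matched. ALDH1L2, EIF4EBP1, GPT2, NUPR1, PSPH, PYCR1, SHMT2 and SLC7A11 had no entry. The 6 members in which the letters lay wholly before the start are printed 5′ to 3′ on the gene's strand, with the matching letters in capitals. They lie at chr16:70289675-70289704 (AARS1, minus strand), chr7:97872458-97872487 (ASNS, minus), chr19:33374060-33374089 (CEBPG, plus), chr15:40953251-40953280 (CHAC1, plus), chr7:30594834-30594863 (GARS1, plus) and chr19:46784893-46784922 (SLC1A5, minus).
AARS1: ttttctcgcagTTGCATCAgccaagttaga
ASNS: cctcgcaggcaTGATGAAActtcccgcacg
CEBPG: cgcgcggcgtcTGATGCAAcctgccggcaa
CHAC1: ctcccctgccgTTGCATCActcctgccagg
GARS1: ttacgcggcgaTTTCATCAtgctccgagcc
SLC1A5: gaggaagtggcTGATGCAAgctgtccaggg
In AARS1, CEBPG, CHAC1 and SLC1A5 the letters were TGATGCAA or its reverse complement TTGCATCA, whereas ASNS held TGATGAAA and GARS1 TTTCATCA. Their first letter stood 187 (AARS1), 68 (ASNS), 42 (CEBPG), 209 (CHAC1), 33 (GARS1) and 97 (SLC1A5) bases before the annotated start within that window. ASNS, CEBPG, GARS1 and SLC1A5 also had windows at other annotated starts, and those lacked the letters. In GENCODE 29 the stretches of ASNS, CHAC1, GARS1 and SLC1A5 overlap exons of the same gene. That of AARS1 overlaps an exon of DDX19B, and that of CEBPG overlaps no exon. In MARS1, SLC1A4, SLC38A1, SLC3A2 and SLC7A1 the letters reached or lay past the start.

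In all, 11 of the 29 members with a window (37.9%) held TGATGNAA in at least 1 window, against 332 of 11717 tested genes with a window (2.83%) and 4.46% of all genes in the RefSeq table. TGATGCAA, which is contained in the first motif, was found in 6 of 29 members (20.7%) and in 0.734% of tested genes. The palindromic cAMP element TGACGTCA was found in 0 of 29 members and in 3.69% of tested genes. Since the list was assembled for reported ATF4 control, these shares describe the list, and a match of letters is not a measured binding site.

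Both siRNAs lowered their target. YAP1 stood at 211, 212 and 204 CPM (counts scaled by library size with TMM factors) in the siNT libraries and at 28.01, 25.7 and 25.2 after siYAP, 7.94-fold lower. WWTR1, which encodes TAZ, stood at 66.1, 64.0 and 55.7 CPM in siNT and at 8.60, 9.55 and 10.4 after siTAZ, 6.51-fold lower. Each group also differed in the other paralogue: WWTR1 was 1.22-fold higher after siYAP and YAP1 was 1.23-fold lower after siTAZ. Depth lay between 16498508 and 18752805 counts in genes per library, so that 3 counts correspond to 0.156 to 0.177 CPM. Of the 12 stellate and mesenchymal markers 10 were tested, and they were mixed in direction. After siYAP 4 rose (COL1A2, ACTA2, HGF, RELN) and 6 fell (COL1A1, COL3A1, VIM, PDGFRB, TAGLN, THY1). After siTAZ 5 rose and 2 fell. Of all tested genes, 33.8% and 33.4% were called higher and lower after siYAP, and 16.4% and 18.2% after siTAZ. The collagen chains COL1A1 and COL1A2 averaged 4164, 2043 and 6249 CPM and 213, 448 and 568 CPM in siNT, siYAP and siTAZ, whereas LRAT had no count in any library and DES was under 1 CPM. Markers of other cell types also differed between the groups. The 7 leukocyte and macrophage markers summed to 35.0, 125 and 22.5 CPM in the 3 groups, with 4 of 7 under 1 CPM throughout. CD68 was the main part of that sum (22.2, 115 and 12.4 CPM). Of the 3 tested, 1 rose (CD68) and 1 fell after siYAP. The one that fell was PTPRC, from 2.60 to 0.147 CPM, and CD14 was not called (9.95 and 10.2 CPM). The 9 hepatocyte markers summed to 2.06, 14.9 and 1.78 CPM, with SERPINA1 the main part, TTR at 0 and 8 of 9 under 1 CPM. Epithelial markers summed to 53.8, 86.5 and 73.0 CPM (3 of 6 under 1 CPM, SOX9 the main part) and endothelial markers to 13.4, 11.4 and 7.50 CPM (3 of 6 under 1 CPM, CLEC4G at 0). Of the 4 endothelial markers tested, 1 rose and 3 fell after siYAP, and 0 rose and 3 fell after siTAZ. Within that last sum PECAM1 went from 0.519 to 6.38 CPM and CDH5 from 5.21 to 0.363 CPM after siYAP. Their part in the results below was not tested.

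After siYAP the programme split by class. Of the 37 members, 14 rose and 18 fell at an adjusted p under 0.05 (edgeR's quasi-likelihood test, with p adjusted by Benjamini-Hochberg over all genes tested), and 5 were not called. Regulators mostly rose (7 of 11, with 2 lower), synthesis enzymes mostly fell (9 of 12, with 1 higher), the transporters divided 4 and 4, and of the 6 synthetases 2 rose and 3 fell. This knockdown changed most genes: 67.1% of all tested genes were called, 33.8% higher and 33.4% lower, so the number of members called is read against a wide background. The median log2 fold change over the members was -0.13, against 0.02 over all genes tested. Changes beyond 2-fold were seen in 4 members upward (SESN2, DDIT3, SLC3A2, CEBPB) and 4 downward (SLC7A5, CBS, PHGDH, ALDH1L2), and 19.8% of all tested genes passed that size.

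After siTAZ the members moved mainly upward and by smaller amounts. In this comparison 22 of 37 rose and 4 fell, against 16.4% of all tested genes higher and 18.2% lower (34.6% called in all). By class, 5 of 11 regulators rose and 2 fell, 6 of 12 synthesis enzymes rose and 0 fell, 6 of 8 transporters rose and 1 fell, and 5 of 6 synthetases rose and 1 fell. The median log2 fold change was 0.21 over the members and 0.01 over all genes tested. Only ASNS and CHAC1 among the members changed beyond 2-fold, a size that 2.97% of all tested genes reached. Both comparisons use the same 3 siNT libraries, so the direct contrast of siTAZ with siYAP serves as the test of their difference. There 20 members were higher after siTAZ and 11 lower, where 33.0% and 33.2% of all tested genes were called in those directions (66.2% in all, 18.8% beyond 2-fold). The median over the members was 0.30 and over all tested genes -0.01 (log2). The members were chosen with earlier results of these data known, so the counts in all 3 comparisons describe the list.

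**Figure D1:**
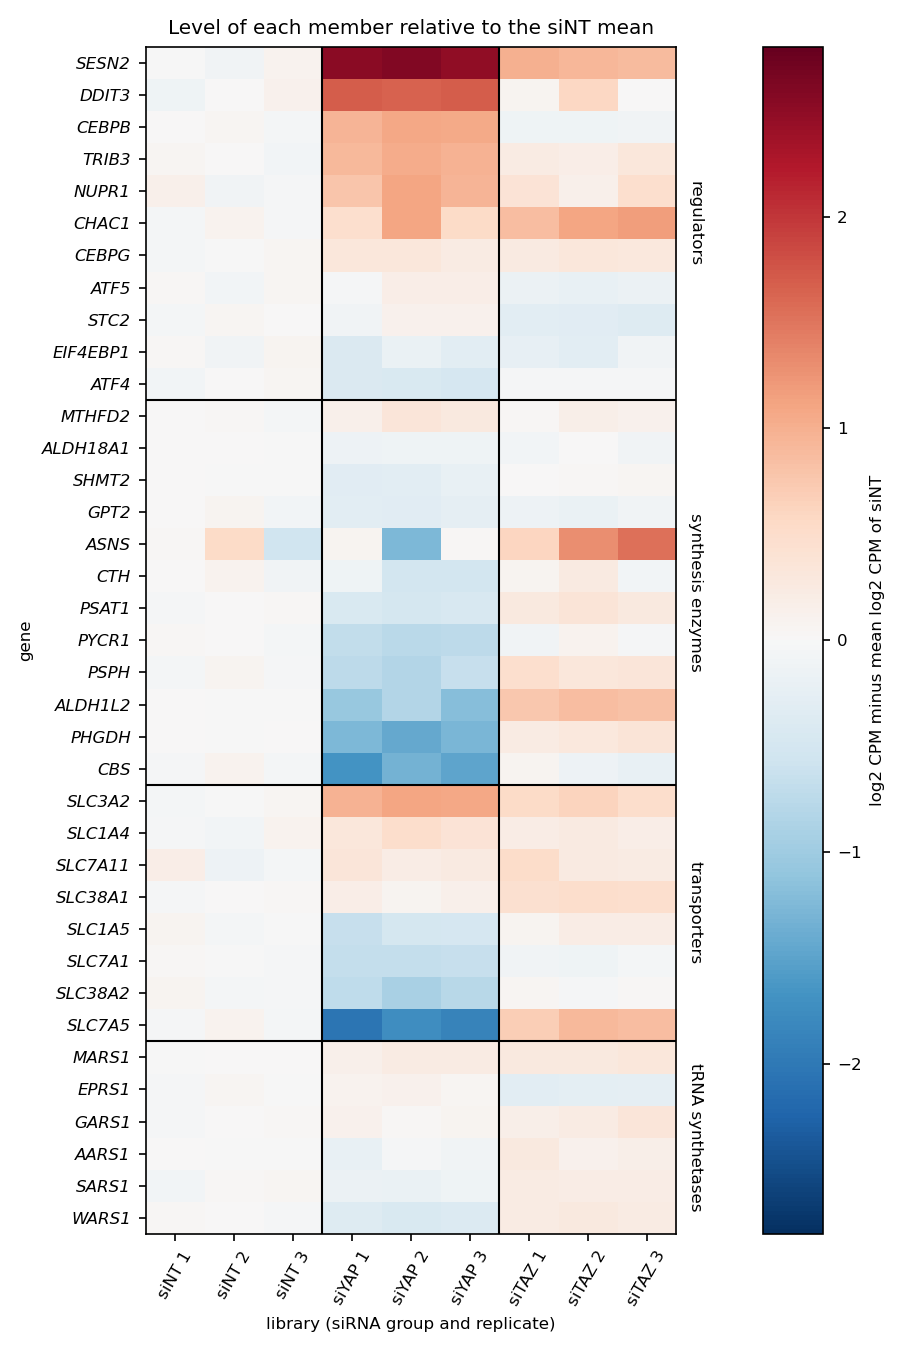
Level of each of the 37 members in each of the 9 libraries as log2 CPM minus the mean log2 CPM of the siNT libraries (colour), grouped by class and sorted within a class by the siYAP change. SESN2 is the reddest row under siYAP, and SLC7A5 turns from blue under siYAP to red under siTAZ.

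**Figure D2:**
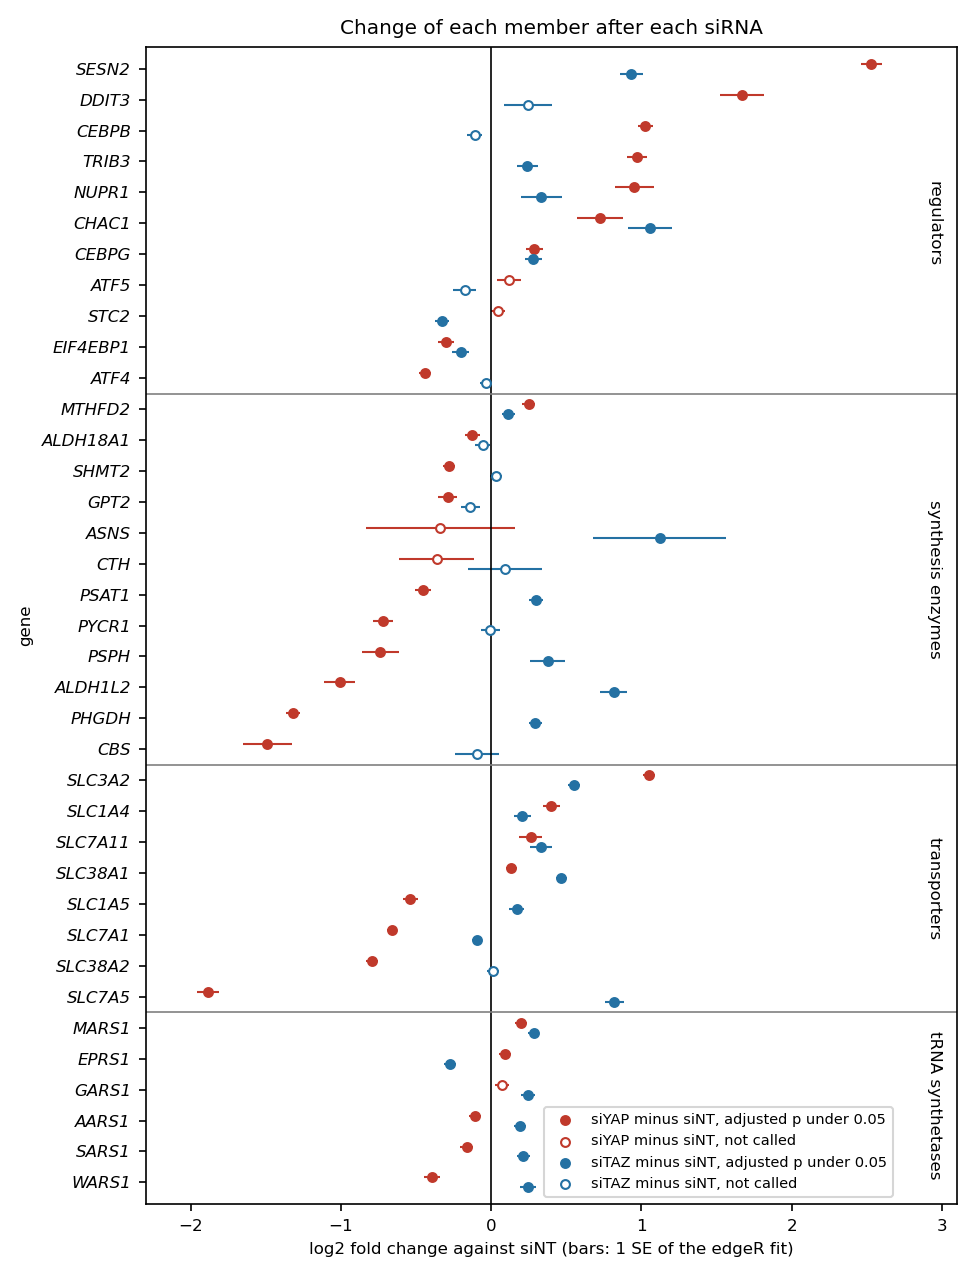
Log2 fold change against siNT of each member after siYAP (red) and siTAZ (blue), with bars of 1 standard error of the edgeR fit; open points were not called. Synthesis enzymes lie mostly left of 0 after siYAP, with 9 of 12 called lower, and none of them was called lower after siTAZ.

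Summed over members, the classes also differed in total level between groups. The 12 synthesis enzymes together held 852 ± 7.97 CPM in siNT, 651 ± 12.4 after siYAP and 941 ± 25.6 after siTAZ (mean ± SD, n = 3 each). The 8 transporters held 1862 ± 38.9, 1483 ± 16.4 and 2138 ± 14.8 CPM, also without overlap between groups. The regulator sum went the other way, with 1047 ± 22.8 CPM in siNT, 1225 ± 67.3 after siYAP and 960 ± 3.91 after siTAZ. STC2 alone gave 508 ± 17.6, 525 ± 45.6 and 405 ± 10.1 CPM of these sums. The fall of STC2 after siTAZ was larger than that of the sum, and 5 of the 11 regulators were called higher and 2 lower. The lower siTAZ sum is therefore not the direction of the class. The 6 synthetases held 854 ± 13.9, 853 ± 11.3 and 940 ± 10.5 CPM, so only the siTAZ libraries stood apart. In siNT cells the levels per kilobase of exon ran from 106 CPM for SLC38A2, 101 for EIF4EBP1, 82.9 for STC2 and 76.0 for ATF4 down to 1.53 for CBS, 1.48 for NUPR1, 1.29 for CTH and 0.177 for ASNS.

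Among the regulators, ATF4 mRNA itself fell after siYAP while several genes downstream of it rose. ATF4 read 181, 194 and 198 CPM in siNT, 143, 141 and 137 after siYAP and 185, 188 and 187 after siTAZ. The siYAP libraries lay below all others, and the siTAZ range fell inside the siNT range. The change was -0.44 ± 0.04 (log2 ± SE, adjusted p = 3.10e-15) after siYAP and -0.03 ± 0.04 (adjusted p = 0.566) after siTAZ. These are mRNA levels, and ATF4 protein was not measured. In bulk RNA a lower level per cell and a smaller share of expressing cells cannot be told apart, here or in the results that follow.

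SESN2, a sestrin that senses leucine and restrains mTORC1, had the largest rise of the list after siYAP. It read 16.4, 15.6 and 17.9 CPM in siNT, 95.2, 99.8 and 93.1 after siYAP and 32.9, 31.7 and 30.5 after siTAZ, with no overlap between any 2 groups. The rise was 5.77-fold after siYAP (adjusted p = 1.53e-40) and 1.91-fold after siTAZ (adjusted p = 5.74e-16), and siTAZ lay 3.03-fold below siYAP (adjusted p = 9.10e-32). DDIT3, the pro-apoptotic factor CHOP, read 4.89, 5.29 and 5.71 CPM in siNT, 17.0, 16.6 and 17.1 after siYAP and 5.57, 7.91 and 5.36 after siTAZ. It was 3.18-fold higher after siYAP (adjusted p = 4.89e-16), whereas the siTAZ libraries overlapped siNT (log2 0.25 ± 0.16, adjusted p = 0.249). The opposite-strand gene MARS1 covers 27.2% of the exon length of DDIT3, and the strand setting of the counts is not given. MARS1 averaged 177 CPM in siNT and 204 after siYAP, and the part of shared reads in the DDIT3 level was not tested.

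CEBPB, a C/EBP partner of ATF4, read 77.2, 80.5 and 73.7 CPM in siNT, 149, 163 and 160 after siYAP and 71.1, 71.02 and 72.6 after siTAZ. It was 2.04-fold higher after siYAP (adjusted p = 1.42e-28) and not called after siTAZ (log2 -0.11 ± 0.05, adjusted p = 0.0914), although the siTAZ libraries lay just below siNT and the call was made without siNT replicate 3 (-0.14). TRIB3, a pseudokinase that feeds back on ATF4 and DDIT3, read 35.6, 34.3 and 32.2 CPM in siNT, 63.8, 69.8 and 66.3 after siYAP and 39.96, 38.6 and 42.1 after siTAZ. Its rise was 1.96-fold after siYAP (adjusted p = 1.75e-20) and 1.18-fold after siTAZ (adjusted p = 0.00429), with the groups apart in both cases. NUPR1, a small stress-induced chromatin protein, rose 1.93-fold after siYAP. Its rise after siTAZ was 1.26-fold (adjusted p = 0.0467) and was lost when any 1 of 6 libraries was left out (siNT 2 or 3, siYAP 2 or 3, siTAZ 1 or 3, log2 0.27 to 0.33) and in 6 other alternatives. CEBPG, the other C/EBP factor among the members, rose under both siRNAs, by 0.29 and 0.28 on the log2 scale. The difference between them was -0.01 ± 0.06 (adjusted p = 0.908).

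CHAC1, a glutathione-degrading enzyme induced by ATF4, was the regulator with the largest siTAZ rise. It read 6.12, 6.78 and 6.16 CPM in siNT, 8.77, 13.6 and 9.16 after siYAP and 11.6, 13.7 and 14.3 after siTAZ. Both knockdown groups lay above siNT and overlapped each other. The rise was 1.65-fold after siYAP (adjusted p = 2.74e-05) and 2.08-fold after siTAZ (adjusted p = 2.46e-08). The direct contrast of 0.33 ± 0.14 (log2, adjusted p = 0.0326) was lost without siYAP replicate 1 or 3 or siTAZ replicate 2 or 3 (0.22 to 0.31) and with DESeq2.

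STC2, a secreted stanniocalcin, had the smallest change among the regulators after siYAP. It read 490, 525 and 509 CPM in siNT, 472, 554 and 548 after siYAP and 414, 405 and 394 after siTAZ. The siYAP libraries spanned the siNT range (log2 0.05, adjusted p = 0.372), and a rise was called only when siYAP replicate 1, the lowest of the 3, was left out (0.11). After siTAZ STC2 fell by 0.33 on the log2 scale (adjusted p = 5.61e-06). EIF4EBP1, the translation repressor 4E-BP1, fell by 0.30 after siYAP and by 0.20 after siTAZ, where the libraries overlapped siNT. Its contrast of 0.10 between the knockdowns was called without siYAP replicate 2 or siTAZ replicate 2 (0.15 in both) and with no filter on low counts. ATF5, a close relative of ATF4, was not called against siNT in either group (0.12 and -0.18) and was lower after siTAZ than after siYAP by 0.30.

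The enzymes of serine synthesis moved in opposite directions under the 2 knockdowns. PHGDH, the first enzyme of the route from glycolysis to serine, read 178, 175 and 178 CPM in siNT, 74.0, 66.0 and 72.8 after siYAP and 206, 218 and 226 after siTAZ. It was 2.49-fold lower after siYAP (adjusted p = 6.43e-36), 1.23-fold higher after siTAZ (adjusted p = 2.65e-08) and 3.06-fold apart between the knockdowns (adjusted p = 7.20e-41). The 3 groups did not overlap.

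The remaining steps of that route followed the same order of groups. PSPH, the phosphatase of the last step, read 13.0, 14.3 and 13.2 CPM in siNT, 8.08, 7.67 and 8.56 after siYAP and 18.7, 16.8 and 17.1 after siTAZ, again without overlap. It was 1.67-fold lower after siYAP (adjusted p = 4.43e-07), 1.30-fold higher after siTAZ (adjusted p = 0.00696) and 2.16-fold higher after siTAZ than after siYAP. PSAT1, the aminotransferase of the middle step, fell by 0.45 after siYAP and rose by 0.30 after siTAZ (log2), with the groups apart in each comparison.

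The mitochondrial one-carbon enzymes did not move as a block. ALDH1L2, which oxidises formyl-tetrahydrofolate, read 21.6, 21.2 and 21.2 CPM in siNT, 10.3, 12.1 and 9.27 after siYAP and 35.8, 38.8 and 37.8 after siTAZ. It was 2.01-fold lower after siYAP (adjusted p = 1.41e-13) and 1.76-fold higher after siTAZ (adjusted p = 1.37e-11), which put the knockdowns 3.54-fold apart. SHMT2, which splits serine into glycine and a one-carbon unit, fell by 0.28 after siYAP and was not called after siTAZ (0.03). MTHFD2, the next enzyme of the same arm, was the only synthesis enzyme that rose after siYAP (0.25, adjusted p = 1.57e-06). Its siTAZ value of 0.11 was called (adjusted p = 0.0413) with overlapping libraries, a call lost without any 1 of siNT 1, 2 or 3 or siTAZ 2 or 3 (0.08 to 0.13) and in 4 other alternatives. Its contrast of -0.14 between the knockdowns was lost without siYAP replicate 2 or siTAZ replicate 1 (-0.09 in both). SLC4A5 on the opposite strand covers 27.2% of the exon length of MTHFD2.

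Of the transsulfuration pair that turns homocysteine into cysteine, CBS had the largest change in its class after siYAP. It read 10.1, 11.2 and 9.95 CPM in siNT, 3.24, 4.12 and 3.72 after siYAP and 10.9, 9.38 and 8.93 after siTAZ. The fall was 2.81-fold after siYAP (adjusted p = 2.90e-12), and the siTAZ libraries overlapped siNT (-0.09 ± 0.15, adjusted p = 0.681). CBS has a near-identical copy, CBSL, that reads may be split with, and CBSL gave -1.12 after siYAP and -0.08 after siTAZ (log2). CTH, the second enzyme, was not called in any comparison (-0.36, 0.09 and 0.46, with SE of 0.24 to 0.25).

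PYCR1 and ALDH18A1 make proline, and both were lower after siYAP by different amounts. PYCR1 is the enzyme of the last step. It read 59.1, 57.5 and 55.4 CPM in siNT, 35.8, 33.9 and 34.7 after siYAP and 53.7, 61.2 and 56.2 after siTAZ. It was 1.65-fold lower after siYAP (adjusted p = 4.52e-15) and had the smallest siTAZ change of its class (-0.01 ± 0.06). ALDH18A1, which makes the precursor from glutamate, read 92.2, 91.8 and 91.4 CPM in siNT, 83.6, 84.1 and 84.8 after siYAP and 87.4, 91.9 and 85.5 after siTAZ. That was the smallest siYAP change among the synthesis enzymes (-0.13, adjusted p = 0.0229), and it was not called with upper-quartile scaling (-0.09). GPT2, a mitochondrial alanine aminotransferase, fell by 0.29 after siYAP. Against siNT its siTAZ value of -0.14 was called only without siNT replicate 3 (-0.18), and its contrast of 0.15 between the knockdowns was lost without siYAP 1 or 2 or siTAZ 1 or 3 (0.14 to 0.15) and in 2 other alternatives.

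ASNS, which makes asparagine and is a standard ATF4 target, had very few reads. The counts were 13, 19 and 9 in siNT, 15, 6 and 13 after siYAP and 21, 34 and 38 after siTAZ. The siTAZ libraries were the highest 3, and siYAP overlapped siNT. The rise after siTAZ was 2.18-fold (log2 1.12 ± 0.44, adjusted p = 0.0423). This call was lost without siNT replicate 1 or 3 or siTAZ replicate 2 or 3 (log2 0.88 to 1.10), with no filter, with the replicate block and with DESeq2. A second gene on the same strand, ENSG00000284707, shares 44.6% of the exon length of ASNS, and its counts were 127 to 157 in siNT, 219 to 255 after siYAP and 125 to 157 after siTAZ. How reads were divided between these models is not known, so the low ASNS level is uncertain.

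**Figure D3:**
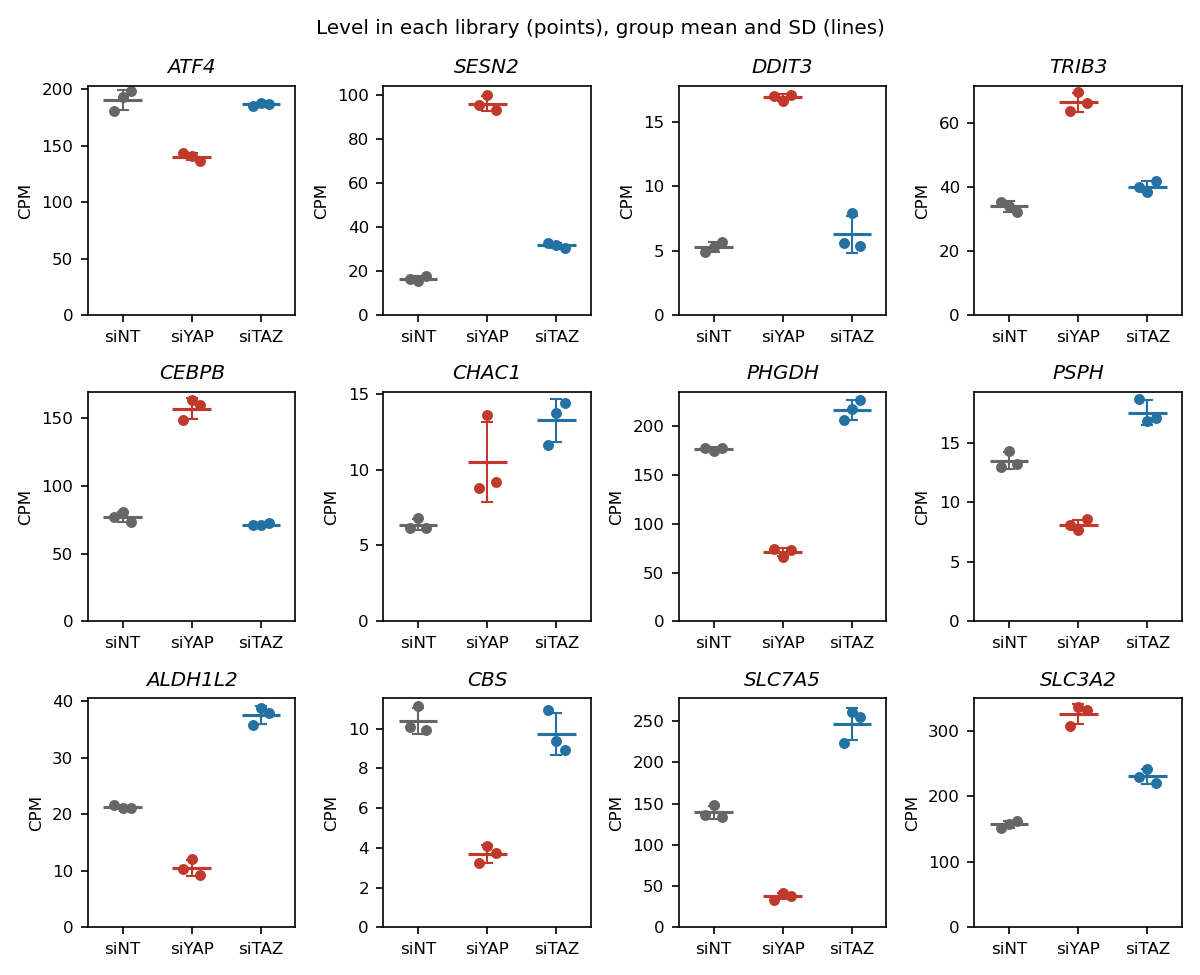
CPM in each library (points) with the group mean and SD (lines) for 12 members, on linear axes from 0. PHGDH, PSPH, ALDH1L2 and SLC7A5 are ordered siYAP, siNT, siTAZ from low to high without overlap, while SESN2 and TRIB3 are lowest in siNT and highest after siYAP.

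Among the transporters, SLC7A5 and its partner chain moved apart after siYAP. SLC7A5, the LAT1 light chain that carries leucine and other large neutral amino acids, read 136, 148 and 134 CPM in siNT, 33.8, 41.6 and 38.0 after siYAP and 224, 261 and 255 after siTAZ. It was 3.69-fold lower after siYAP (adjusted p = 3.12e-15) and 1.77-fold higher after siTAZ (adjusted p = 1.23e-09). The difference between the knockdowns was 6.52-fold (adjusted p = 4.52e-18), the widest of any member in the 3 comparisons.

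SLC3A2, the 4F2 heavy chain that holds SLC7A5 and SLC7A11 at the membrane, read 151, 157 and 163 CPM in siNT, 307, 336 and 331 after siYAP and 229, 242 and 220 after siTAZ. It rose 2.07-fold after siYAP (adjusted p = 1.85e-33) and 1.46-fold after siTAZ (adjusted p = 2.12e-18), with the 3 groups apart. Per kilobase of exon, the ratio of SLC3A2 to SLC7A5 was 0.970 to 1.11 in siNT, 7.40 to 8.35 after siYAP and 0.791 to 0.936 after siTAZ. The ratio of SLC3A2 to SLC7A11, the cystine light chain, was 6.11 to 7.91 in siNT, 11.2 to 13.3 after siYAP and 7.34 to 9.30 after siTAZ. SLC7A11 itself rose by 0.26 and 0.33 (log2), with 0.07 ± 0.07 between the knockdowns.

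The sodium-coupled carriers of alanine, serine and glutamine differed among themselves. SLC38A2 (SNAT2), the transporter of highest level per kilobase, read 739, 681 and 689 CPM in siNT, 432, 376 and 408 after siYAP and 727, 684 and 718 after siTAZ. It was 1.73-fold lower after siYAP (adjusted p = 3.14e-19) and had the smallest siTAZ change of its class (0.01 ± 0.04). Its neighbour in family, SLC38A1 (SNAT1), read 209, 215 and 217 CPM in siNT, 243, 226 and 235 after siYAP and 291, 299 and 294 after siTAZ. That was the smallest siYAP change among the transporters (log2 0.14, adjusted p = 0.000977), with a rise of 0.47 after siTAZ (adjusted p = 4.41e-17). SLC1A5 (ASCT2), which exchanges glutamine, fell by 0.54 after siYAP and rose by 0.17 after siTAZ, whereas its relative SLC1A4 (ASCT1) rose by 0.40 and 0.21. SLC7A1, the arginine and lysine carrier, fell by 0.66 after siYAP, and its fall of 0.09 after siTAZ was lost without siNT replicate 1 or siTAZ replicate 1 or 2 (-0.09 to -0.07) and with upper-quartile scaling.

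The 6 synthetases, which charge tRNAs in the cytosol, changed by at most 1.55-fold in the 3 comparisons. WARS1 had the largest siYAP change, with 80.7, 80.2 and 77.1 CPM in siNT, 62.1, 58.6 and 60.6 after siYAP and 92.5, 96.0 and 93.4 after siTAZ. It fell by 0.39 after siYAP (adjusted p = 2.17e-09) and rose by 0.24 after siTAZ (adjusted p = 0.000106). GARS1 had the smallest siYAP change (0.07, adjusted p = 0.181), with 101, 104 and 105 CPM in siNT, 112, 105 and 109 after siYAP and 116, 121 and 131 after siTAZ, where it rose by 0.25; with upper-quartile scaling its siYAP value was called (0.10).

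MARS1 had the largest siTAZ rise of the class, with 175, 178 and 179 CPM in siNT, 195, 207 and 208 after siYAP and 214, 213 and 219 after siTAZ. It rose by 0.20 after siYAP and 0.28 after siTAZ, and the 0.08 between the knockdowns was not called (adjusted p = 0.0534) but was when siNT 1, 2 or 3, siYAP 2 or 3 or siTAZ 2 was left out (0.09 to 0.10) and in 3 other alternatives. AARS1 had the smallest siTAZ change (0.19, adjusted p = 0.000148), with 173 CPM in each siNT library, 151, 169 and 161 after siYAP and 209, 189 and 194 after siTAZ. Its fall of 0.11 after siYAP was lost without siYAP replicate 1 (-0.07) and with upper-quartile scaling. SARS1 fell by 0.16 after siYAP and rose by 0.21 after siTAZ. EPRS1 was the 1 synthetase that fell after siTAZ, by 0.27, and its siYAP rise of 0.09 was lost without siNT 1 or 3, siYAP 1 or 2 or siTAZ 2 or 3 (0.06 to 0.08) and in 2 other alternatives.

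Split by the letters in their promoter windows, 10 of the 11 members that held TGATGNAA rose after siTAZ and 1 fell, against 8 and 2 of the 18 members whose windows lacked it and 4 and 1 of the 8 without a window (16.4% and 18.2% of all tested genes were called higher and lower). After siYAP the 3 sets gave 6 higher and 3 lower, 6 and 9, and 2 and 6, against 33.8% and 33.4% of all tested genes. Between the knockdowns, siTAZ was higher than siYAP in 7 and lower in 2 of the first set, and higher in 8 and lower in 8 of the second. It was higher in 5 and lower in 1 of the members without a window, against 33.0% and 33.2% of all tested genes. The median log2 fold changes of the 3 sets were 0.28, 0.10 and 0.18 after siTAZ and 0.14, -0.14 and -0.29 after siYAP. Between the knockdowns they were 0.30, 0.22 and 0.23. No test was made of these splits. Single libraries decided the siTAZ call of SLC7A1, the only member with the letters that fell. They also decided that of ASNS, which is counted among the 10 that rose.

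Other genes of the pathway were read from 9 further lists, in which a few genes stand in more than 1 list. Their counts are read against the shares over all tested genes, 33.8% higher and 33.4% lower after siYAP (67.1% called) and 16.4% higher and 18.2% lower after siTAZ (34.6% called). The eIF2 kinases, phosphatase subunits and eIF2B machinery (19 genes tested) gave 8 higher and 6 lower after siYAP (73.7% called) and 5 higher and 6 lower after siTAZ (57.9%). PPP1R15A (GADD34), which brings the phosphatase to eIF2, rose by 0.94 after siYAP (adjusted p = 5.30e-30) and fell by 0.18 after siTAZ. The kinase gene EIF2AK3 (PERK) rose by 0.59 and 0.25 after siYAP and siTAZ, while EIF2B3, a subunit of the exchange factor, fell by 0.60 and 0.29, the latter not called without siNT replicate 3 (-0.23). Other genes with reported ATF4 control (21 tested) gave 10 higher and 3 lower after siYAP and 9 higher and 4 lower after siTAZ (61.9% called in each). Here the stress cytokine GDF15 was 16.03-fold higher after siYAP and rose by 0.95 ± 0.26 (log2) after siTAZ, and the angiogenic factor VEGFA by 1.89 and 0.61. CEBPD, a C/EBP factor, rose by 1.63 and 0.41 after siYAP and siTAZ, and TXNIP, a thioredoxin-binding arrestin, by 1.61 and 0.85. BCAT1, the cytosolic aminotransferase of branched-chain amino acids, fell by 1.45 after siYAP.

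The 3 lists of further enzymes differed in how far their calls departed from the shares over all tested genes. The other serine, folate and proline enzymes (18 tested) gave 3 higher and 9 lower after siYAP (66.7% called) and 1 higher and 4 lower after siTAZ (27.8%), so the number called was near or below the 67.1% and 34.6% of all genes. MTHFD1, the cytosolic one-carbon enzyme, fell by 1.07 and 0.16, and ALDH4A1 of proline breakdown fell by 1.04 after siYAP. The glutamine, aspartate, branched-chain and urea-cycle enzymes (15 tested) gave 1 higher and 10 lower after siYAP (73.3% called) and 1 higher and 5 lower after siTAZ (6 of 15). GLUL, glutamine synthetase, fell by 1.41 and BCKDHB, of branched-chain keto acid breakdown, by 0.90 after siYAP, and both were higher after siTAZ than after siYAP (1.33 and 1.02). The glutathione and methionine-cycle enzymes (11 tested) gave 3 higher and 7 lower after siYAP (90.9% called) and 0 higher and 7 lower after siTAZ (63.6%). GCLM, the modifier subunit of the rate-limiting step of glutathione synthesis, rose by 0.58 after siYAP and fell by 0.25 after siTAZ, and the catalytic subunit GCLC fell by 0.59 after siTAZ, with -0.09 (not called) after siYAP.

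Synthetases outside the member list are read against the 67.1% and 34.6% of all tested genes called. The other 14 cytosolic synthetases gave 3 higher and 7 lower after siYAP (71.4% called) and 0 higher and 6 lower after siTAZ (42.9%). FARSB fell by 0.63 and LARS1 by 0.41 after siYAP, VARS1 fell by 0.34 and 0.27 after siYAP and siTAZ, and TARS1 by 0.23 after siTAZ. The 17 mitochondrial synthetases gave 1 higher and 9 lower after siYAP (58.8% called) and 2 higher and 3 lower after siTAZ (29.4%). SARS2 fell by 1.15 and NARS2 by 0.78 after siYAP, and VARS2 fell by 0.90 after siYAP and rose by 0.30 after siTAZ.

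Further transporters and the amino acid sensors of mTORC1 were mixed in direction. The other amino acid transporters (18 tested) gave 5 higher and 7 lower after siYAP (66.7% called, where all genes gave 67.1%) and 7 higher and 4 lower after siTAZ (61.1%, where all genes gave 34.6%). SLC38A4, a system A carrier, fell by 2.27 after siYAP and was 2.63 higher after siTAZ than after siYAP. The cationic carrier SLC7A2 fell by 1.44 and 1.43, and the lysosomal glutamine carrier SLC38A7 rose by 0.89 and 0.53. The sensing genes (24 tested) gave 11 higher and 5 lower after siYAP (66.7% called) and 3 higher and 4 lower after siTAZ (29.2%), about the shares over all genes. RRAGD and RRAGC, Rag GTPases that recruit mTORC1 to the lysosome, rose by 2.04 and 1.25 after siYAP, and MIOS, of the GATOR2 complex, fell by 1.32. SESN1, a relative of SESN2, rose by 0.69 after siYAP and 0.90 after siTAZ.

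**Figure D4:**
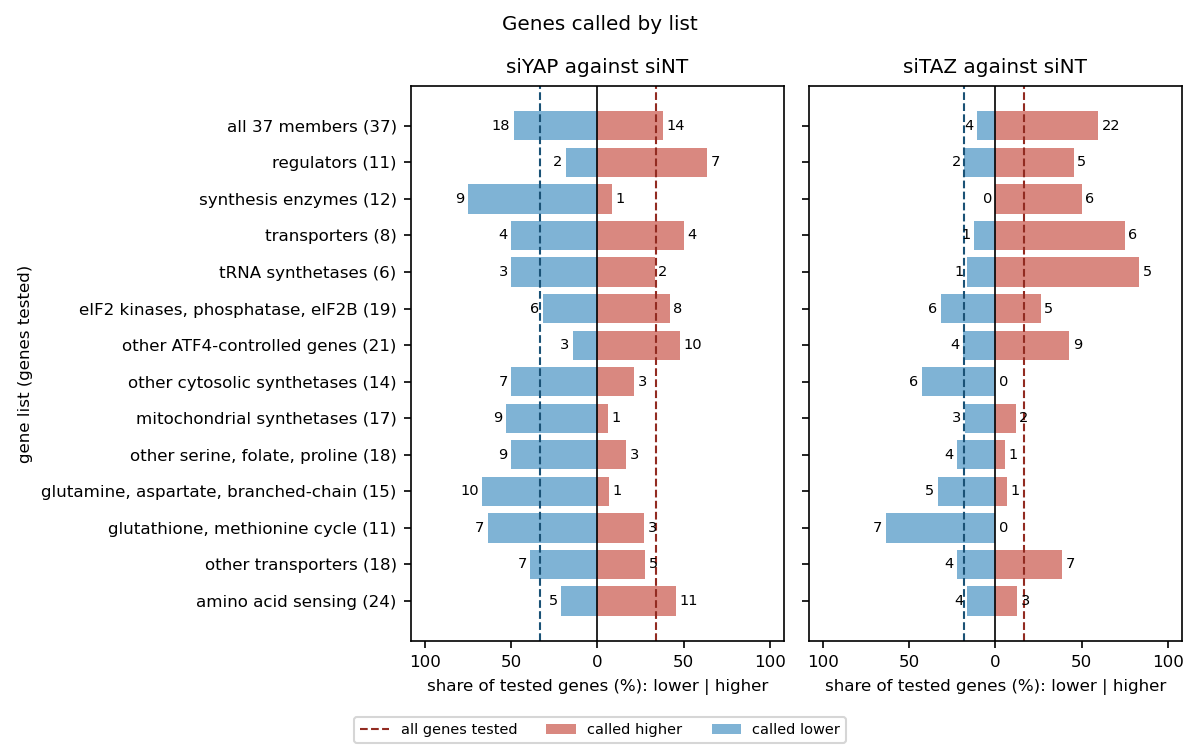
Share of the tested genes of each list called higher (right) and lower (left) after siYAP and after siTAZ, with the number of genes at each bar and dashed lines at the shares over all genes tested. After siTAZ the bars of the transporter and synthetase members reach 6 of 8 and 5 of 6 genes, and the bar of the other cytosolic synthetases lies on the lower side with 6 of 14.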

How the data were processed

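The authors deposited unnormalized counts of reads for each Ensembl gene, with a file for every library. The submitters' processing notes list HTSeq, STAR 2.5.0c, Trim Galore, Picard and SAMtools. The build they name, mm10, is a mouse build although the identifiers are human, and annotation release and strand setting are not given in the sources used here. Summary lines of the counter were left out of library sizes (no feature 4.73% to 7.49%, ambiguous 6.33% to 6.91%). Analysis ran in edgeR 4.0.16 under R 4.3.3: filterByExpr by group (minimum count 10, minimum total 15), TMM scaling and a robust quasi-likelihood fit over all 9 libraries, with two-sided tests and Benjamini-Hochberg adjustment over 15560 genes, called at an adjusted p under 0.05. CPM use TMM-scaled library sizes. Names came from a gene name table (36366 identifiers) and GENCODE release 29 (219), which also gave positions on GRCh38, exon lengths and overlaps; SAMTOR of the sensing list found no match. Alternatives were other scalings and filters, a replicate block, DESeq2 1.42.0, limma 3.58.1 (voom), the compared groups alone, stricter thresholds and each library left out in turn. The members, lists, motifs and markers were chosen with earlier results of these data known. Per-library values are given for ATF4, for members called with a log2 change of at least 1 in size, for the largest and smallest changes of a class against siNT, and for TRIB3, added after its values were seen. Of the other lists up to 3 called genes per comparison with the largest change and an average log2 CPM of at least 3 could be named. Libraries of a group differed by more than sampling noise, which does not show whether they came from separate cultures. Each was counted as 1 replicate. Groups of 3 are too small for a check of single outlying libraries.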

Additional observations from a re-analysis of the deposited data

How the results depend on the processing

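Members called stayed within 13 to 14 higher and 17 to 18 lower (siYAP against siNT), 19 to 22 and 3 to 6 (siTAZ against siNT) and 18 to 21 and 10 to 11 (siTAZ against siYAP) when each library was left out in turn, and genes called within 9995 to 10655, 4575 to 5522 and 9832 to 10409. Against a fold of 1.5 the members called dropped to 6 higher and 7 lower, 3 and 0, and 10 and 4, and genes called to 3852, 342 and 3633, which follows from the larger size asked for. Values that changed sign under an alternative were of uncalled differences near 0 (log2): PYCR1 in siTAZ against siNT with upper-quartile scaling (0.0116) and without 1 library (-0.0616 to 0.0355), SLC38A2 in siTAZ against siNT without 1 library (-0.0102 to 0.0509), CEBPG in siTAZ against siYAP with no filter (0.0146) and without 1 library (-0.0342 to 0.0156), and SLC7A11 in siTAZ against siYAP without 1 library (-0.0219 to 0.133). With upper-quartile scaling 52.3% of the genes called in siTAZ against siNT were higher, against 47.5% with TMM. Of the calls printed for genes of the other lists, only that of EIF2B3 after siTAZ was lost when 1 library was left out.

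With the replicate number as a block (replicate block), 10434, 5413 and 10268 genes and 14 higher and 18 lower, 20 and 4, and 21 and 11 members were called in the 3 comparisons. Libraries of the same number did not deviate together (correlations of -0.031 to 0.014 over 9 pairs), so the numbers were not treated as pairs. Depth limits ASNS most, with 6 to 38 counts per library.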
